A study of Mus musculus with 15 samples.

Results

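The genes described here encode 10 integrin subunits that bind extracellular matrix or the latent form of TGF-beta: Itga1, Itga3, Itga5, Itga8, Itgav, Itgb1, Itgb3, Itgb5, Itgb6 and Itgb8. They were chosen by name and are represented by 23 probes on the array. A probe counted as above background in a sample when its detection p was under 0.01, and probes that reached this in 2 or more samples were kept. This left 18 probes of 9 genes, out of 21048 probes and 11648 genes kept in all. Itgb3, the partner of the alpha IIb subunit in platelets, had 1 probe, which was above background in no sample (lowest detection p 0.0983), so no change is given for it.

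Total RNA of whole lungs and kidneys from BALB/c mice was measured on Illumina expression arrays. The 5 groups were healthy lung (n = 3), lung with fibrosis after bleomycin was given into the trachea (bleomycin lung, n = 3), lung of mice whose kidney was made fibrotic by unilateral ureteral obstruction (UUO-mouse lung, n = 3), healthy kidney (n = 3), and kidney of the obstructed mice (UUO kidney, n = 2). Each replicate is a separate mouse by the animal numbers in the labels, and 4 mice gave both organs: the 3 healthy mice and 1 UUO mouse, the source of UUO-mouse lung 2 and UUO kidney 2. The labels used here give neither the dose of bleomycin nor the days between injury and sampling, and they do not say whether the healthy mice had a sham operation or instillation. The comparisons ask how fibrosis of each organ changed these transcripts, whether the lung of a mouse with a fibrotic kidney differed from a healthy lung, and how the healthy organs differed.

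Mean raw signals were 267 to 527 per array, and 32.4% to 41.5% of all probes were above background. All 13 alveolar epithelial markers were above background in each lung, and 14 or 15 of 15 kidney epithelial markers in each kidney. Some samples stood apart. Of 14 liver transcripts, 12 were above background in healthy lung 3 and in UUO-mouse lung 1, against 1 to 4 in the other lungs. Bleomycin lung 1 had 9 of the 15 kidney markers above background, against 5 to 7 in healthy lungs. The Y-linked gene Eif2s3y was above background in all healthy samples and in bleomycin lungs 1 and 2, and in no sample of a UUO mouse, whereas Xist, the transcript of the inactive X, was above background in bleomycin lungs 1 and 3 and in all samples of UUO mice. Sex and UUO therefore cannot be told apart in these data.

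Integrins are receptors made of an alpha and a beta chain that span the plasma membrane and tie the extracellular matrix to the actin cytoskeleton. The beta 1 chain pairs with many alpha chains to bind collagen, laminin or fibronectin, whereas alpha v pairs with beta 1, beta 3, beta 5, beta 6 or beta 8 and binds proteins with the RGD motif, among them fibronectin, vitronectin and the latency peptide of TGF-beta. Alpha v beta 6, an epithelial receptor, releases active TGF-beta from its latent complex, and this step is known to drive fibrosis of the lung and kidney in mice.

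The 250 bases before the annotated start are shown for genes that rose in the UUO kidney and differ in promoter composition (RefSeq, GRCm38.p6, printed 5′ to 3′ on the gene's strand). Itga3 lies on the minus strand and has 2 annotated starts, of which the first is shown, at chr11:95076715-95076964. The second, at chr11:95069199-95069448, holds 1 GC box and has a GC content of 50.8%, against 67.6% at the first. Itgb5 lies on the plus strand, at chr16:33829415-33829664. Itgb6 lies on the minus strand and has 2 annotated starts, with windows at chr2:60722604-60722853 and chr2:60673694-60673943. Capitals mark matches, on either strand, to the letters GGGCGG (the GC box bound by Sp1 and KLF factors) or CAGACA (a Smad box).
Itga3 start 1: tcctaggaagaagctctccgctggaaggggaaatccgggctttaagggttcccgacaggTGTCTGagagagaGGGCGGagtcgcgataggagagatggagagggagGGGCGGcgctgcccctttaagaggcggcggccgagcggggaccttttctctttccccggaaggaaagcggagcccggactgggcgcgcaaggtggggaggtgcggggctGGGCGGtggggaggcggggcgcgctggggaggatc
Itgb5: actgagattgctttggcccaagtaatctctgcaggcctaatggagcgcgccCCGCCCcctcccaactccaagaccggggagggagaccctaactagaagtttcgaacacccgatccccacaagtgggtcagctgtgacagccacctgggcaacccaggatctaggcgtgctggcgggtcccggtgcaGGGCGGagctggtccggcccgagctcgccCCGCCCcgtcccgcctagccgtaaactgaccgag
Itgb6 start 1: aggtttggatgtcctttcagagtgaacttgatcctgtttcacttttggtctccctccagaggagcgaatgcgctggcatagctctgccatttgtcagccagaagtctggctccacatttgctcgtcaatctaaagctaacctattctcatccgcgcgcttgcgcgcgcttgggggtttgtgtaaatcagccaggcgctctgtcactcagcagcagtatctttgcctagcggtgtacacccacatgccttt
Itgb6 start 2: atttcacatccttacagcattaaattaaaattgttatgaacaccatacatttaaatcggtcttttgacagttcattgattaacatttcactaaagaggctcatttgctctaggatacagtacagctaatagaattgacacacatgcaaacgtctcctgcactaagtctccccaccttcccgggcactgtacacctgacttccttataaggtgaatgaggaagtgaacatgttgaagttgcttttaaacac
The first Itga3 window and that of Itgb5 hold several GC boxes, and neither window of Itgb6 holds any. A promoter window was found for 9 of the 10 genes, at 11 starts, and none for Itgb3. GGGCGG was present at 5 of the 11 starts and in 32.7% of 32851 mouse promoter windows of the same length. CAGACA was present at 3 of 11 and in 17.1%, and the TEAD motif GGAATG at 1 of 11 and in 12.6%. The AP-1 motif TGANTCA, in 6.75% of all windows, and TATAAA, in 12.4%, were at 0 of the 11 starts. No matches of different motifs overlapped. The median GC content was 57.6% at the 11 starts and 52.4% in all windows. A match is a description of the letters and says nothing of binding.

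In the UUO kidney, 6 of the 9 measured subunits rose against healthy kidney and 0 fell. Itga3, the laminin receptor chain, rose 4.57-fold, Itgav 3.57-fold, Itga5 3.23-fold, Itgb5 2.46-fold, Itgb6 2.38-fold and Itgb1 1.82-fold. Itga1, Itga8 and Itgb8 did not pass the test. Each call is that of the brightest kept probe of the gene, and for Itgav and Itgb1 it depends on the probe. The RefSeq probe of Itgav and the second probe of Itgb1 were lower on average in the UUO kidney and did not pass. Over all 11648 genes, 43% passed this comparison, 26% higher and 16.9% lower. Both UUO kidneys lay beyond all healthy kidneys for 7 of the 9, and for 63.1% of all genes. Itga8 is among the 7, though its probe was above background in no kidney. The median log2 fold change was 1.25 over the 9 subunits and 0.12 over all genes.

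In the bleomycin lung the subunits moved both ways. Itga5, the fibronectin receptor chain, rose 2.81-fold and Itgb6 rose 1.49-fold, whereas Itga1, a collagen receptor chain, fell to 0.315 of the healthy level and Itga8 to 0.25. These 4 of 9 calls stand beside 43.1% of all genes that passed, with 21.3% higher and 21.8% lower. Each call is that of the brightest kept probe, and for Itgav the result depends on the probe. Its brightest probe did not pass, whereas its RefSeq probe rose (2.19 ± 0.25, adjusted p = 3.93e-05 over all probes). The groups did not overlap for 6 of 9 subunits and 56.2% of all genes. Itgb8 is among the 6, though its probe was above background in no lung. The median log2 fold change was 0.03 for the subunits and -0.04 for all genes.

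In the lung of UUO mice 1 of 9 subunits passed on its brightest kept probe: Itga1 fell to 0.504 of its healthy level. For Itgb1 the result depends on the probe. Its brighter probe did not pass, whereas its second probe fell (-1.50 ± 0.23, adjusted p = 0.00278 over all probes) and was above background in 1 of the 3 UUO-mouse lungs. Over all genes 10.9% passed, 5.81% higher and 5.05% lower, so the share among the subunits was near the background. The groups did not overlap for 4 of 9 subunits and 35.7% of all genes. The change of Itga1 missed the threshold when the limma model was fitted to these lungs alone (adjusted p = 0.0658), without healthy lung 1 (adjusted p = 0.0541), without UUO-mouse lung 3 (adjusted p = 0.0612), and without both healthy lung 3 and UUO-mouse lung 1, the lungs with liver transcripts (-0.91, adjusted p = 0.0924). The call of Itga1 was also lost when the second array of UUO-mouse lung 2 was used alone (-0.84, adjusted p = 0.0554).

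Here and below, a change is a log2 fold change ± SE from a linear model over all 5 groups (limma), levels are log2 intensities of 1 probe, and "rose" and "fell" mean a Benjamini-Hochberg adjusted p under 0.05 over all genes. The spread is pooled over the 5 groups, which matters for the 2 UUO kidneys. Levels of different probes are not comparable with each other. These are whole organs, in which fewer cells of a type and less RNA per cell cannot be told apart.

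**Figure D1:**
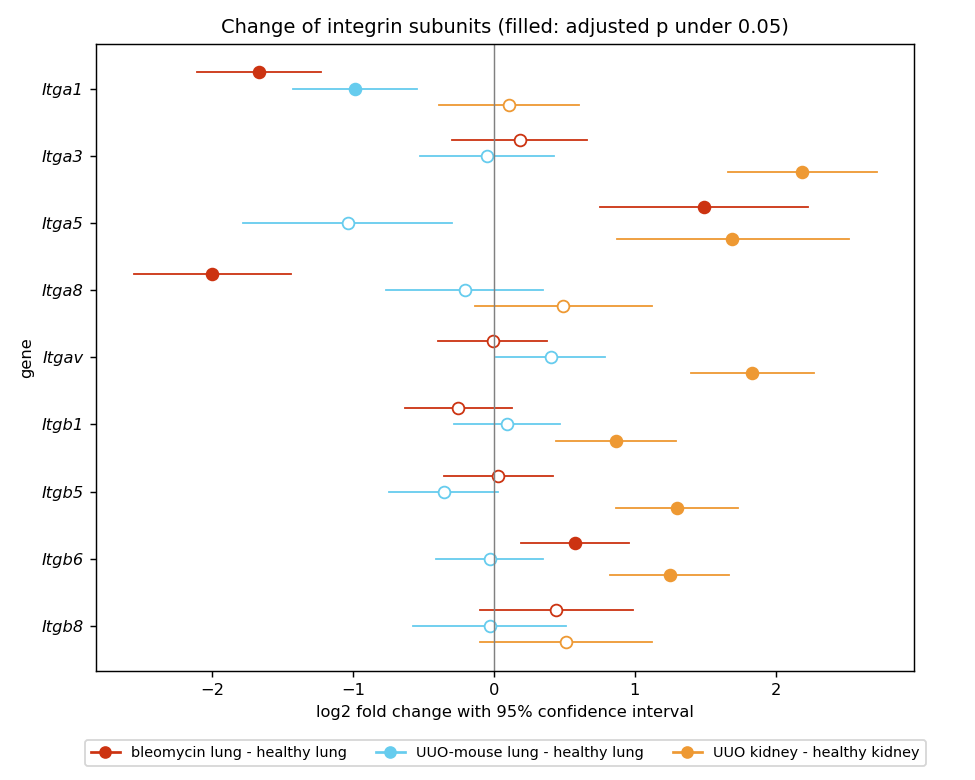
Log2 fold change (horizontal axis) of the 9 measured subunits (vertical axis) in bleomycin lung and UUO-mouse lung against healthy lung and in UUO kidney against healthy kidney, with 95% confidence intervals from the model; filled points passed an adjusted p of 0.05. The 6 subunits that passed in the UUO kidney all lie to the right of 0, whereas in the bleomycin lung Itga5 and Itgb6 lie to the right and Itga1 and Itga8 to the left. Each gene is shown by its brightest kept probe. For Itgav and Itgb1 the UUO kidney call depends on the probe. So do the result of Itgav in the bleomycin lung and that of Itgb1 in the UUO-mouse lung, where another probe passed.

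Itga1 encodes the alpha 1 chain, which pairs with beta 1 to bind collagen, and is found on fibroblasts, smooth muscle and capillary endothelium. Its level was 8.80, 8.05 and 8.50 in the healthy lungs, 6.74, 6.66 and 6.95 in the bleomycin lungs and 7.36, 7.85 and 7.18 in the UUO-mouse lungs. All healthy lungs lay above all UUO-mouse lungs, and these above all bleomycin lungs. The value of UUO-mouse lung 2 is the mean of 2 arrays, which read 7.42 and 8.29, the second above healthy lung 2. The level was 8.02, 7.91 and 8.13 in the healthy kidneys and 8.09 and 8.16 in the UUO kidneys, which overlapped. The change in the bleomycin lung was -1.67 ± 0.20 (adjusted p = 8.06e-05) and that in the UUO-mouse lung -0.99 ± 0.20 (adjusted p = 0.0133). In the UUO kidney the value was 0.11 ± 0.23 (adjusted p = 0.756, 95% interval -0.39 to 0.60). Healthy kidney and healthy lung overlapped, with a difference of -0.43 ± 0.20 (adjusted p = 0.0785). In order of level, healthy lung overlapped UUO kidney and UUO kidney overlapped healthy kidney, and the other neighbours did not overlap.

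Itga3 encodes the alpha 3 chain, an epithelial receptor for laminin that also sits on the foot processes of kidney podocytes. Its level was 11.19, 10.94 and 11.01 in healthy lungs, 11.09, 11.36 and 11.23 in bleomycin lungs and 11.09, 10.74 and 11.16 in UUO-mouse lungs. The 3 lung groups overlapped. It was 7.84, 7.91 and 8.28 in healthy kidneys and 9.74 and 10.66 in UUO kidneys, so that both UUO kidneys lay between the healthy kidneys and the lungs. The change in the UUO kidney was 2.19 ± 0.25 (adjusted p = 2.93e-05). It was 0.18 ± 0.22 in the bleomycin lung (adjusted p = 0.528) and -0.05 ± 0.22 in the UUO-mouse lung (adjusted p = 0.911). Healthy kidney was lower than healthy lung (-3.04 ± 0.22, adjusted p = 1.37e-07). The gene had 1 probe on the array.

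Itga5 encodes the alpha 5 chain, which pairs with beta 1 as the main fibronectin receptor. Its level was 7.76, 7.96 and 7.995 in healthy lungs, 9.86, 9.29 and 9.03 in bleomycin lungs and 7.08, 6.78 and 6.74 in UUO-mouse lungs. The bleomycin lungs were all above and the UUO-mouse lungs all below the healthy lungs. It was 5.33, 6.13 and 5.79 in healthy kidneys and 6.69 and 8.19 in UUO kidneys. Both UUO kidneys were above the healthy ones, and UUO kidney 2 was well above UUO kidney 1. The change was 1.49 ± 0.34 in the bleomycin lung (adjusted p = 0.00395), 1.69 ± 0.38 in the UUO kidney (adjusted p = 0.00341) and -1.04 ± 0.34 in the UUO-mouse lung, which missed the threshold (adjusted p = 0.0688). Without UUO kidney 2 the kidney call was lost (0.94, adjusted p = 0.0514), with 1 UUO kidney left and its spread taken from the other groups. A second probe, also of the RefSeq transcript, rose in the bleomycin lung (1.58 ± 0.33, adjusted p = 0.00189 over all probes). In kidneys it was above background in UUO kidney 2 alone, so it gives no size for the change there. Bleomycin lung exceeded UUO-mouse lung by 2.53 ± 0.34 (adjusted p = 9.3e-05), and healthy kidney was lower than healthy lung (-2.16 ± 0.34, adjusted p = 0.000115). In order of level, healthy lung overlapped UUO kidney and UUO kidney overlapped UUO-mouse lung.

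Itga8 encodes the alpha 8 chain, which pairs with beta 1 to bind nephronectin and marks interstitial fibroblasts and mesangial cells. Its level was 8.43, 8.001 and 8.12 in healthy lungs, 6.22, 5.85 and 6.47 in bleomycin lungs and 8.54, 7.53 and 7.84 in UUO-mouse lungs. The bleomycin lungs lay below all other lungs. In the healthy kidneys, at 4.48, 4.50 and 4.50, the probe was not well above background, and neither was it in the UUO kidneys at 5.31 and 4.66. The change in the bleomycin lung was -2.00 ± 0.26 (adjusted p = 0.00011) and that in the UUO-mouse lung -0.21 ± 0.26 (adjusted p = 0.646). A second probe fell less in the bleomycin lung (-0.88 ± 0.22). Healthy kidney was at least 5.39-fold lower than healthy lung (adjusted p = 1.01e-07), against the lowest signal of any probe above background; the probe passed the filter only through the lungs, so this difference follows in part from the filter. The UUO kidney value was 0.49 ± 0.29 (adjusted p = 0.191), and the second probe gave 0.66 ± 0.25 (adjusted p = 0.0471) with neither kidney group above background. In UUO-mouse lung 2, measured on 2 arrays, the main probe read 6.99 on one and 8.07 on the other, the largest gap of the 9 genes.

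Itgav encodes alpha v, the shared partner of the beta chains below. Its probes did not tell the same story. The brightest, of the clone sequence AK079805, stood for the gene and read 7.04, 7.16 and 7.18 in healthy lungs, 7.20, 7.25 and 6.90 in bleomycin lungs, 7.57, 7.32 and 7.69 in UUO-mouse lungs, 7.24, 7.501 and 7.33 in healthy kidneys, and 8.85 and 9.53 in UUO kidneys. On this probe the UUO kidneys stood clear of the other groups. It rose in the UUO kidney (1.83 ± 0.20, adjusted p = 2.34e-05), with values of -0.01 ± 0.18 in the bleomycin lung (adjusted p = 0.966) and 0.40 ± 0.18 in the UUO-mouse lung (adjusted p = 0.16). The probe of the RefSeq transcript NM_008402 read 5.57, 5.46 and 5.49 in healthy lungs and 7.43, 8.10 and 7.56 in bleomycin lungs. Its UUO-mouse lungs were at 5.50, 5.65 and 5.34, beside the healthy lungs. In kidneys it read 7.72, 7.53 and 7.85 when healthy and 6.77 and 7.88 after UUO, which overlapped. This probe rose in the bleomycin lung (2.19 ± 0.25, adjusted p = 3.93e-05 over all probes), was higher in healthy kidney than in healthy lung (2.19 ± 0.25, adjusted p = 6.16e-06) and did not pass in the UUO kidney (-0.38 ± 0.28, adjusted p = 0.298). The probe of clone AK036485, was above background only in the 2 UUO kidneys (6.99 and 7.53), where it was at least 2.84-fold above the healthy kidneys; it passed the filter through those 2 samples alone. The probe of clone AK020674 was above background in 4 samples and passed in none of the 3 injury comparisons. Statements on Itgav in the counts therefore hold for the AK079805 probe and turn with the NM_008402 probe.

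Itgb1 encodes the beta 1 chain, the partner of alpha 1, alpha 3, alpha 5 and alpha 8. Its brighter probe read 7.66, 7.43 and 7.79 in healthy lungs, 7.41, 7.40 and 7.30 in bleomycin lungs, 7.48, 7.90 and 7.77 in UUO-mouse lungs, 6.09, 6.62 and 6.67 in healthy kidneys, and 7.23 and 7.42 in UUO kidneys. The healthy kidneys were the lowest group, and both UUO kidneys lay above them. The change in the UUO kidney was 0.87 ± 0.19 (adjusted p = 0.00353), and healthy kidney was lower than healthy lung (-1.16 ± 0.17, adjusted p = 7.68e-05). The value was -0.26 ± 0.17 in the bleomycin lung (adjusted p = 0.259) and 0.09 ± 0.17 in the UUO-mouse lung (adjusted p = 0.779). The second probe, of the same RefSeq transcript, read 7.03, 6.88 and 7.03 in healthy lungs but 5.72, 5.35 and 5.38 in UUO-mouse lungs, which was a fall (-1.50 ± 0.23, adjusted p = 0.00278 over all probes). In kidneys it read 7.23, 6.75 and 6.78 when healthy and 5.85 and 6.81 after UUO (-0.59 ± 0.26, adjusted p = 0.0812), opposite in sign to the brighter probe. It did not differ by the test between healthy kidney and healthy lung, whose samples overlapped (-0.06 ± 0.23, adjusted p = 0.836). Statements on Itgb1 in the counts therefore hold for the brighter probe.

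**Figure D2:**
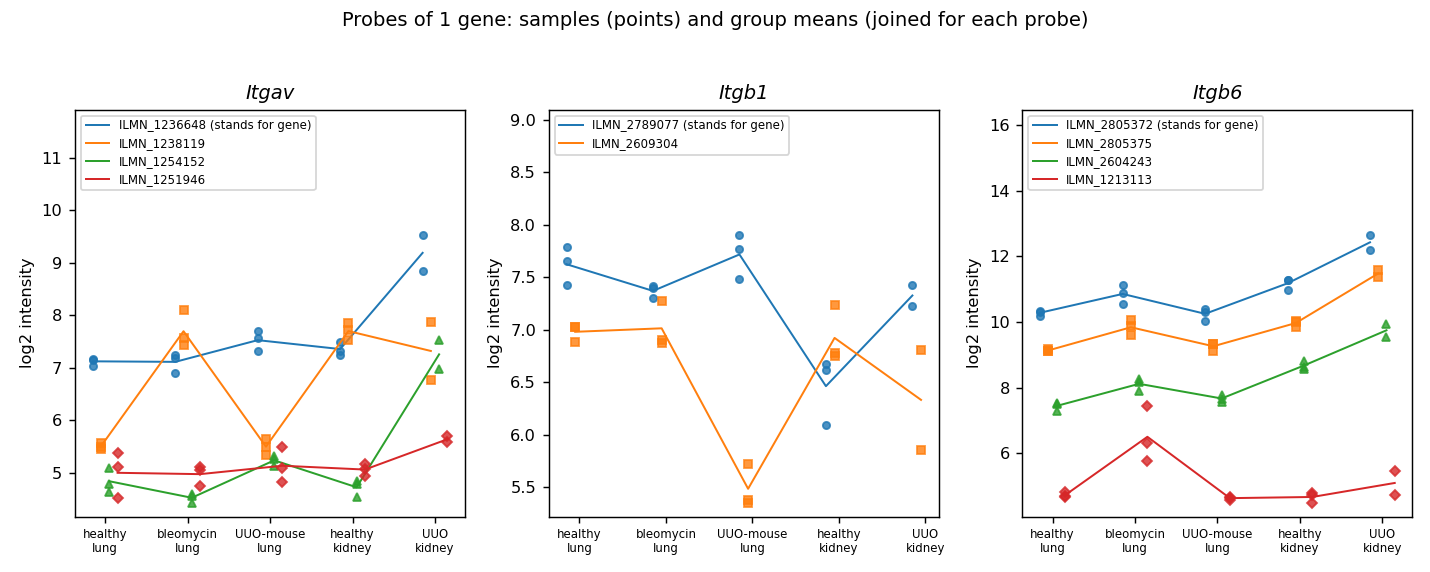
Log2 intensity (vertical axis) of every kept probe of Itgav, Itgb1 and Itgb6 in each sample of the 5 groups (horizontal axis); points are samples and lines join the group means of 1 probe. The NM_008402 probe of Itgav (ILMN_1238119) is high in bleomycin lungs and in healthy and UUO kidneys, ILMN_1236648 and ILMN_1254152 are high in UUO kidneys alone, and the second Itgb1 probe is low in UUO-mouse lungs.

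Itgb5 encodes the beta 5 chain, which with alpha v binds vitronectin. Its level was 10.19, 9.92 and 9.87 in healthy lungs, 10.22, 9.81 and 10.05 in bleomycin lungs and 9.83, 9.54 and 9.54 in UUO-mouse lungs. Healthy and bleomycin lungs overlapped, and the UUO-mouse lungs lay just below the healthy ones. It was 9.24, 9.32 and 9.40 in healthy kidneys and 10.93 and 10.31 in UUO kidneys, with both UUO kidneys above every other sample. The change in the UUO kidney was 1.30 ± 0.20 (adjusted p = 0.000273). It was 0.03 ± 0.18 in the bleomycin lung (adjusted p = 0.903) and -0.36 ± 0.18 in the UUO-mouse lung (adjusted p = 0.208). Healthy kidney was lower than healthy lung (-0.67 ± 0.18, adjusted p = 0.00497), a difference that was not called with the authors' matrix values (-0.26, adjusted p = 0.209). The gene had 1 probe.

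Itgb6 encodes the beta 6 chain, made by epithelial cells. Its level was 10.19, 10.31 and 10.35 in healthy lungs, 10.56, 10.88 and 11.13 in bleomycin lungs and 10.32, 10.04 and 10.39 in UUO-mouse lungs. All bleomycin lungs exceeded all other lungs. It was 11.28, 10.99 and 11.27 in healthy kidneys and 12.21 and 12.65 in UUO kidneys, the highest group. The change was 0.58 ± 0.18 in the bleomycin lung (adjusted p = 0.0189), 1.25 ± 0.20 in the UUO kidney (adjusted p = 0.00033) and -0.03 ± 0.18 in the UUO-mouse lung (adjusted p = 0.932). The lung call was lost without healthy lung 1 (adjusted p = 0.0639) and without bleomycin lung 3 (0.44, adjusted p = 0.0762). The other 2 probes of the RefSeq transcript rose in both, by 0.70 ± 0.14 and 0.67 ± 0.15 in the bleomycin lung and by 1.52 ± 0.16 and 1.07 ± 0.17 in the UUO kidney. The probe of clone AK019511 was near background in healthy lungs (4.69, 4.66 and 4.80) and read 6.31, 7.43 and 5.77 in bleomycin lungs, at least 2.32-fold higher. It passed the filter through the bleomycin lungs and UUO kidney 2. Healthy kidney was higher than healthy lung (0.90 ± 0.18, adjusted p = 0.000639).

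Itgb8 encodes the beta 8 chain, which with alpha v also activates TGF-beta. In lungs its probe was not above background: 4.39, 4.64 and 4.29 when healthy, 4.78, 4.86 and 5.003 after bleomycin and 4.44, 4.47 and 4.33 in UUO mice. It was 6.45, 7.27 and 6.17 in healthy kidneys and 7.47 and 6.81 in UUO kidneys, which overlapped. The kidney value was 0.51 ± 0.28 (adjusted p = 0.163, 95% interval -0.10 to 1.12), and it passed without healthy kidney 2 (0.83, adjusted p = 0.0119) and with median scaling (0.89, adjusted p = 0.0212). Healthy kidney was at least 2.54-fold higher than healthy lung (adjusted p = 7.92e-06), a probe kept only through the kidneys. The other 2 probes of Itgb8 were above background in 1 and 0 samples and were not kept.

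**Figure D3:**
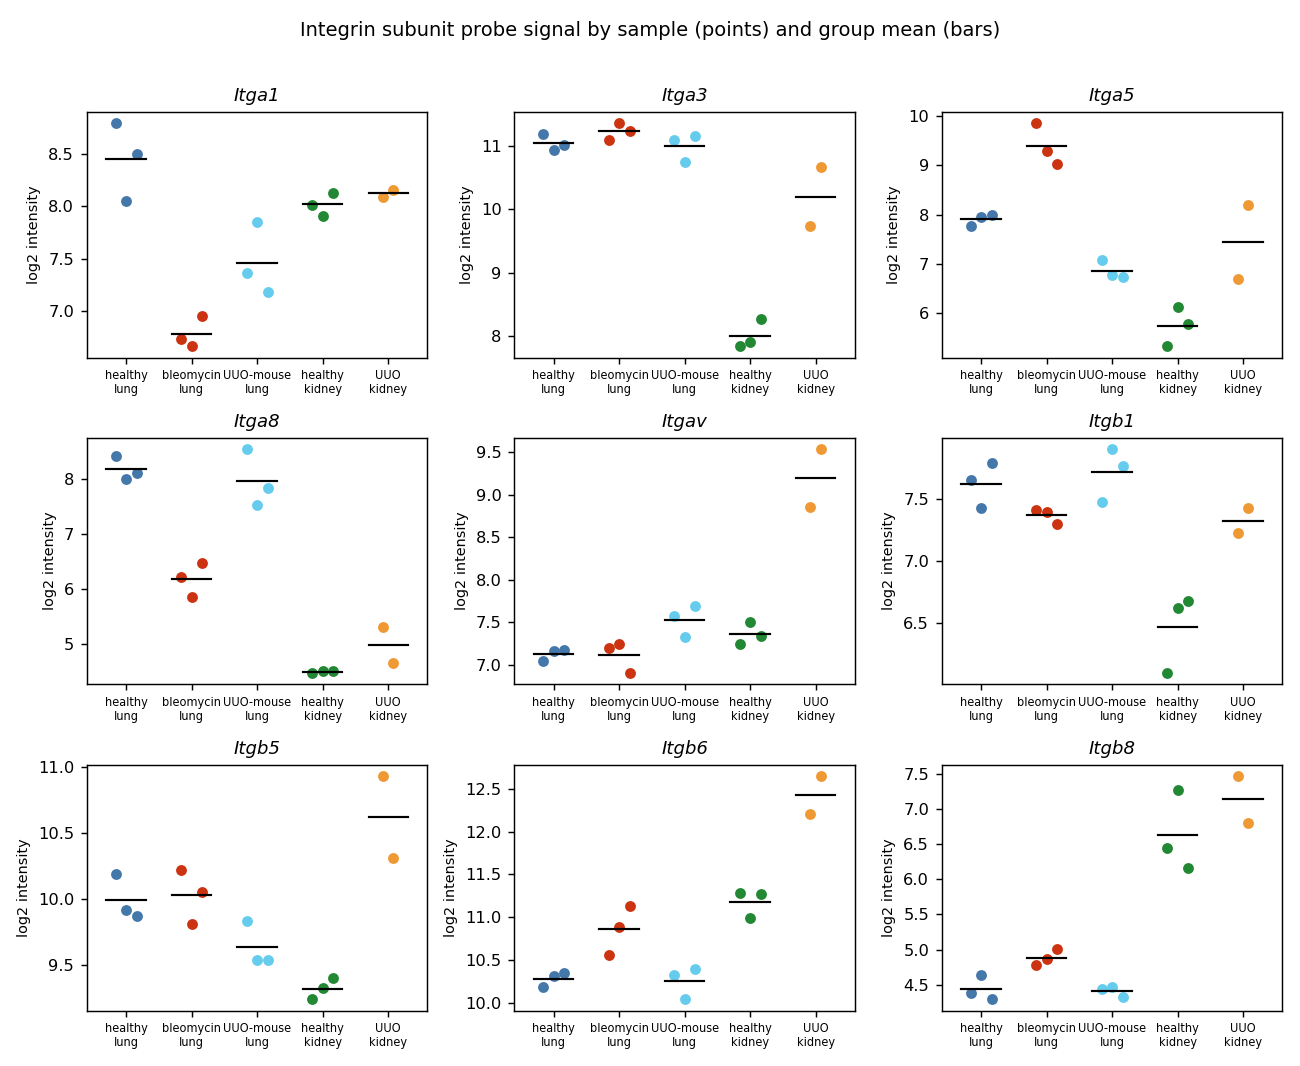
Log2 intensity (vertical axis, scaled separately in each panel) of the brightest kept probe of the 9 measured subunits in the 14 samples of the 5 groups (horizontal axis); points are samples and bars group means. Itga3, Itgav, Itgb5 and Itgb6 show both UUO kidneys above the 3 healthy kidneys, and Itga1 and Itga8 show the bleomycin lungs below the healthy lungs.

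Between the healthy organs, 7 of the 9 subunits differed: Itga3, Itga5, Itga8, Itgb1 and Itgb5 were lower in kidney, and Itgb6 and Itgb8 were higher. The Itga8 probe was kept only through lungs and the Itgb8 probe only through kidneys, so both differences follow in part from the filter. Over all genes 66.6% differed, 29.8% higher and 36.9% lower in kidney, and the groups did not overlap for 8 of 9 subunits and 73.9% of all genes, so the share among the subunits says little about them. The subunits that rose in the UUO kidney thus started below the level of the lung for Itga3, Itga5 and Itgb5 and above it for Itgb6. For Itgb1 and Itgav the probes disagreed. The brightest Itgav probe did not pass between the healthy organs (0.23 ± 0.18, adjusted p = 0.263), whereas its RefSeq probe was higher in kidney.

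The changes were tested against each other as the bleomycin effect in the lung minus the UUO effect in the kidney. For 6 of 9 subunits the difference passed and was below 0, which means a lower change in the lung, whereas 45% of all genes passed, 17.9% above 0 and 27.1% below. It was -2.49 ± 0.39 for Itga8 (adjusted p = 0.000317), but the kidney part of this value comes from a probe above background in no kidney, so its size is not measured. It was -2.01 ± 0.33 for Itga3 (adjusted p = 0.000466), -1.84 ± 0.27 for Itgav (adjusted p = 0.000204) and -1.77 ± 0.30 for Itga1 (adjusted p = 0.000645). For Itgb5 it was -1.27 ± 0.27 (adjusted p = 0.00234) and for Itgb1 -1.12 ± 0.26 (adjusted p = 0.00432). Those of Itga5 (-0.20 ± 0.51, adjusted p = 0.772), Itgb6 (-0.67 ± 0.26, adjusted p = 0.0539) and Itgb8 (-0.07 ± 0.38, adjusted p = 0.9) did not pass. For Itga5 the 95% interval of the difference was -1.31 to 0.90, so a rise of the same size in both organs and a difference of over 2-fold were both within it. On the NM_008402 probe of Itgav the difference was 2.57 ± 0.37, the opposite sign. The organs also differ in the injury, so organ and injury cannot be told apart here.

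Between bleomycin lung and UUO-mouse lung, 4 of 9 subunits differed, against 50% of all genes (22.3% higher and 27.8% lower), and the groups did not overlap for 7 of 9, against 60% of all genes. Itgb8 is among the 7, though its probe was above background in no lung. In bleomycin lung Itga5 (2.53 ± 0.34) and Itgb6 (0.61 ± 0.18, adjusted p = 0.012) were higher and Itga8 (-1.79 ± 0.26, adjusted p = 0.000149) and Itga1 (-0.68 ± 0.20, adjusted p = 0.0145) lower than in UUO-mouse lung. The Itga1 value lost its call without bleomycin lung 2 (adjusted p = 0.0507) or UUO-mouse lung 2 (adjusted p = 0.0613), and that of Itgb6 without bleomycin lung 3 (adjusted p = 0.0527). Itga3 (0.23, adjusted p = 0.404), Itgav (-0.41, adjusted p = 0.0708), Itgb1 (-0.35, adjusted p = 0.115), Itgb5 (0.39, adjusted p = 0.0859) and Itgb8 (0.47, adjusted p = 0.136) did not pass. Other probes of Itgav and Itgb1 went the opposite way. With the RefSeq probe standing for the gene, Itgav was higher in bleomycin lung (2.2 ± 0.25, adjusted p = 3.29e-05). The second probe of Itgb1 averaged 7.01 in bleomycin lung and 5.48 in UUO-mouse lung. The same lungs enter this comparison and those with healthy lung, so the comparisons are not independent.

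Taken probe by probe, with probes of 1 gene counted separately, 10 of the 18 kept probes passed in the bleomycin lung, 7 higher and 3 lower, against 44.4% of all probes (23.6% and 20.8%). Among the 7, the AK019511 probe of Itgb6 was kept only through the bleomycin lungs and UUO kidney 2, so its call follows in part from the filter. In the UUO-mouse lung 2 passed, both lower, against 12% of all probes (5.29% and 6.73%). In the UUO kidney 11 passed, all higher, against 43.6% of all probes (22.7% higher and 21% lower), but the second probes of Itga5 and Itga8 among them were too near background to give a size. The AK036485 probe of Itgav, also among them, was kept only through the 2 UUO kidneys, so its call follows in part from the filter. Between bleomycin and UUO-mouse lung 12 passed, 8 higher and 4 lower, against 52% (26.2% and 25.8%), and between the healthy organs 12, 5 higher and 7 lower in kidney, against 65.3% (31.4% and 33.8%). For the difference of effects 11 passed, 2 above and 9 below 0, against 47.7% (23.1% and 24.5%). Of the 9 probes that did not stand for their gene, 7 had the sign and 8 the call of the one that did in the bleomycin lung, 5 and 8 in the UUO-mouse lung, and 7 and 4 in the UUO kidney. In the difference of effects 5 had the same sign and 4 the same call, and 1 had the opposite call.

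The way arrays were scaled moves all genes together. The median log2 fold change of all genes in bleomycin against UUO-mouse lung was -0.09 as reported, 0.49 with median scaling and 0.63 with the authors' matrix values, and Itga1 then read 0.06 and 0.16 in place of -0.68. Relative to the median of all genes, Itga1 was at -0.59, -0.43 and -0.46 in the same order. In UUO kidney against healthy kidney the median of all genes was 0.12, 0.33 and -0.21, and Itgb1, the smallest of the changes called, was at 0.75, 0.91 and 0.84 relative to it.

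Among 13 other measured integrin subunits, 4 rose and 4 fell in the bleomycin lung, 0 passed in the UUO-mouse lung and 5 rose in the UUO kidney. Over all genes, 21.3% rose and 21.8% fell in the bleomycin lung and 10.9% passed in the UUO-mouse lung. In the UUO kidney 26% rose and 16.9% fell. In the bleomycin lung, those with the smallest adjusted p in each direction were leukocyte and platelet chains: Itgam (at least 1.45-fold, adjusted p = 0.000555) and its partner Itgb2 (1.03 ± 0.20, adjusted p = 0.00155) rose, and Itga2b, the platelet alpha IIb chain (-2.34 ± 0.19, adjusted p = 8.64e-06), and Itgae, the alpha chain of intraepithelial lymphocytes (-1.80 ± 0.19, adjusted p = 4.1e-05), fell. The other falls there, named after their values were seen, were those of the leukocyte chains Itga4 (-0.85 ± 0.13, adjusted p = 0.000286) and Itgb7 (-1.69 ± 0.28, adjusted p = 0.000529). In the UUO kidney Itga9, a receptor chain for tenascin-C (1.79 ± 0.16, adjusted p = 5.47e-06), and Itga11, a collagen receptor chain of fibroblasts (at least 1.55-fold, adjusted p = 0.000456), rose. The smallest adjusted p in the UUO-mouse lung was that of Itgae (0.65 ± 0.19, adjusted p = 0.0524). The median over these 13 was -0.28, 0.29 and 0.56 in the 3 comparisons, against -0.04, 0.05 and 0.12 over all genes.

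Of 23 measured ligands and latent TGF-beta components, 12 rose and 3 fell in the bleomycin lung, 1 rose and 2 fell in the UUO-mouse lung, and 19 rose and 0 fell in the UUO kidney. The shares of all genes that rose and fell, to be read beside the counts of each list here, were 21.3% and 21.8% in the bleomycin lung, 5.81% and 5.05% in the UUO-mouse lung, and 26% and 16.9% in the UUO kidney. Thbs1, thrombospondin, which binds integrins and activates TGF-beta, rose by 3.39 ± 0.27 in the bleomycin lung (adjusted p = 6.91e-06), and collagen III (Col3a1) by 2.24 ± 0.23 (adjusted p = 3.2e-05). Npnt, the nephronectin ligand of alpha 8 beta 1, fell there (-1.49 ± 0.32, adjusted p = 0.00257), as did Nrros, which holds latent TGF-beta on myeloid cells (-1.02 ± 0.22, adjusted p = 0.00282). Col4a1 of basement membranes rose by 2.92 ± 0.20 in the UUO kidney (adjusted p = 1.37e-06), where Col3a1 was at least 5.35-fold higher (adjusted p = 1.93e-06). In the UUO-mouse lung Fn1, fibronectin, fell (-1.91 ± 0.35, adjusted p = 0.00843), as did the matricellular ligand Ccn1 (-1.28 ± 0.35, adjusted p = 0.0399), and the laminin chain Lamc1 rose (0.78 ± 0.16, adjusted p = 0.0136). The list's median was 0.68, -0.08 and 1.93.

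Of 31 measured integrin activators and focal adhesion adaptors, 5 rose and 4 fell in the bleomycin lung, 0 rose and 6 fell in the UUO-mouse lung, and 17 rose and 1 fell in the UUO kidney, beside 21.3% and 21.8%, 5.81% and 5.05%, and 26% and 16.9% of all genes. The endocytic adaptor Dab2 (1.75 ± 0.16, adjusted p = 1.56e-05) and the beta 1 binding protein Itgb1bp1 (0.71 ± 0.14, adjusted p = 0.00157) rose in the bleomycin lung, and tensin 1 (Tns1, -1.40 ± 0.17, adjusted p = 8.43e-05) and Lims2 (-0.78 ± 0.15, adjusted p = 0.00163) fell. In the UUO-mouse lung Ilk, the integrin-linked kinase, fell (-0.88 ± 0.12, adjusted p = 0.00234), as did the actin crosslinker Actn4 (-0.94 ± 0.16, adjusted p = 0.0068). In the UUO kidney filamin A (Flna, 2.93 ± 0.23, adjusted p = 2.65e-06) and vinculin (Vcl, 1.40 ± 0.14, adjusted p = 1.37e-05), which link integrins to actin, rose, and Tns1 fell (-1.15 ± 0.19, adjusted p = 0.000518). The list's median was 0.06, -0.18 and 0.58.

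Of 7 measured TGF-beta response genes, 3 rose and 2 fell in the bleomycin lung, 0 rose and 2 fell in the UUO-mouse lung, and 5 rose and 1 fell in the UUO kidney, beside the same shares of all genes. The transcriptional repressor Tgif1 (1.24 ± 0.34, adjusted p = 0.0114) rose in the bleomycin lung, where Ski, another repressor of Smad targets, fell (-0.78 ± 0.18, adjusted p = 0.00434), as it did in the UUO-mouse lung (-1.16 ± 0.18, adjusted p = 0.00453). Pmepa1, a feedback inhibitor of TGF-beta signalling, rose in the UUO kidney (2.00 ± 0.26, adjusted p = 7.67e-05). Tgfbi, a secreted matrix protein, rose by 1.37 ± 0.34 in the bleomycin lung (adjusted p = 0.00613) and by 3.03 ± 0.38 in the UUO kidney (adjusted p = 6.05e-05). Smad6, an inhibitory Smad, fell in the bleomycin lung (-1.29 ± 0.19, adjusted p = 0.000217), in the UUO-mouse lung (-2.42 ± 0.19, adjusted p = 6.65e-05) and in the UUO kidney (-0.64 ± 0.21, adjusted p = 0.0256). The list's median was 0.22, -0.12 and 1.33.

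**Figure D4:**
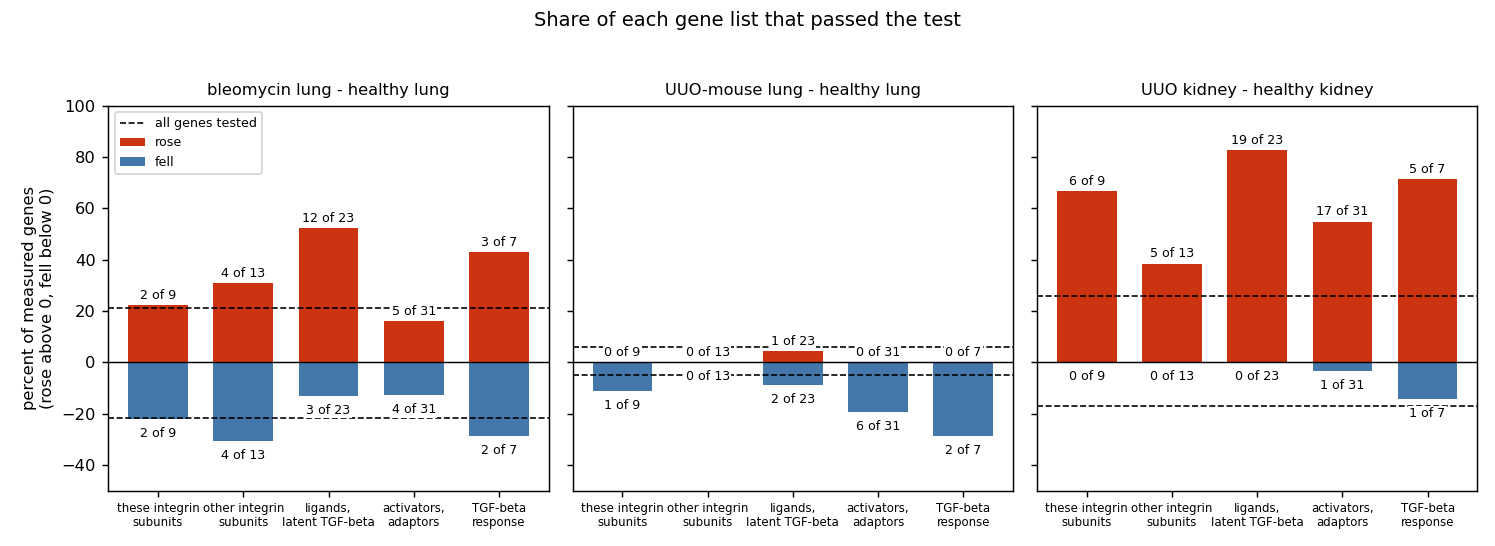
Percent of the measured genes of 5 lists that rose (above 0) or fell (below 0) in the 3 injury comparisons (panels); numbers over the bars are genes called of genes measured, and dashed lines give the percent of all 11648 genes that rose or fell. In the UUO kidney 6 of 9 subunits and 19 of 23 ligands rose, whereas in the UUO-mouse lung the bars lie near the dashed lines or below 0.

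Markers of other cells were counted in the same way. Beside these counts, 21.3% of all genes rose and 21.8% fell in the bleomycin lung. The shares were 5.81% and 5.05% in the UUO-mouse lung, and 26% and 16.9% in the UUO kidney. Of 16 macrophage and monocyte markers, 12 rose in the bleomycin lung, 4 rose and 1 fell in the UUO-mouse lung, and 13 rose and 1 fell in the UUO kidney. The summed linear level of this list was 17700 to 18300 in healthy lungs and 22200 to 39900 after bleomycin, and 2050 to 2400 in healthy kidneys against 8940 to 14600 in UUO kidneys. Of 15 fibroblast and pericyte markers, 5 rose and 1 fell in the bleomycin lung, and 11 rose and 1 fell in the UUO kidney (summed level 3240 to 5320 in healthy and 14400 to 21000 in UUO kidneys). Of 13 endothelial markers, 8 fell in the bleomycin lung, from a summed level of 58800 to 61100 to one of 35000 to 36400, and 6 of 7 platelet markers fell there too. In the UUO-mouse lung 3 endothelial markers fell, and in the UUO kidney 6 rose and 1 fell. Of 13 alveolar epithelial markers 3 fell in the bleomycin lung (107000 to 115000 in healthy and 79900 to 86000 in bleomycin lungs) and 1 in the UUO-mouse lung. These shares, 23.1% and 7.69%, were near those of all genes that fell. Of 12 tested liver transcripts, 1 fell in the bleomycin lung and 0 passed in the UUO-mouse lung in the limma fit. Of 15 kidney epithelial markers, 6 fell in the UUO kidney (114000 to 123000 in healthy, 55300 to 79700 in UUO kidneys). Their part in the integrin changes was not tested. The falls of Itga1 and Itga8 and the rise of Itga5 in the bleomycin lung kept direction and call in each of the other settings run, with bleomycin lung 1, bleomycin lung 3, or healthy lung 3 with UUO-mouse lung 1 left out among them. No setting took the markers into account, so this says nothing of their part.

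The genes nearest to each subunit were those whose level, centred on its own mean, differed least over the 14 samples (root mean square difference, log2). Those of Itga3 were Anxa2 and Csrp1, both at 0.18 against a standard deviation of 1.26 for Itga3 itself. Those of Itgb1 were Spred1 and Senp1, both at 0.17 against 0.49. Those of Itgav were Pafah1b3 (0.21) and Krt12 (0.27) against 0.71, those of Itgb5 Cdc42ep5 (0.21) and Hic2 (0.22) against 0.44, and those of Itgb6 Trim47 (0.24) and Ydjc (0.26) against 0.74. Those of Itga8 were Cd27 and Rnf144a, both at 0.27 against 1.53, and those of Itgb8 Gpr160 (0.28) and Rragd (0.31) against 1.14. Those of Itga1 were Pdap1 (0.34) and Naa80 (0.35) against 0.63, and those of Itga5 Tuba1a (0.39) and Dnmt3l (0.46) against 1.30. No other subunit had a neighbour as close for its spread as Itga3 had.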

How the data were processed

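Biotinylated cRNA of total RNA was hybridised to Illumina arrays, per the labels' protocols. The deposited values are linear probe signal intensities, and each has its own detection p-value, also deposited. GenomeStudio 5.0 is named in the submitters' processing notes, and earlier steps are not stated there. Of 45281 probes, 34885 had 1 gene symbol in the platform annotation, 18 several and 10378 none. The 15 arrays gave 14 samples. The 2 arrays of UUO-mouse lung 2 (correlation 0.969) were averaged on the log2 scale, and their higher detection p was used. Healthy kidney 1 is called lung in 1 label field and kidney in its title, which was used.

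Signals were background corrected with limma 3.58.1 in R 4.3.3 (neqc, which estimated the negative controls from detection p, with an offset of 16) and quantile normalized over all arrays. Probes above background (detection p under 0.01) in 2 or more samples were kept (21048), and the kept probe with the highest mean stood for its gene. A model of 5 group means (9 residual and 3.06 prior degrees of freedom) gave 6 comparisons, adjusted by Benjamini-Hochberg over 11648 genes at 0.05. Per-probe values were adjusted over all kept probes. The fit was tested on simulated data. Where a probe was not well above background in a whole group (detection p from 0.05 up), the fold is a bound set against the lowest signal of a probe above background. The number of arrays limits the precision.

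The members, gene lists and tests were chosen with earlier results of these data known. All 10 subunits are named in every comparison. Of the other lists, the smallest adjusted p picked up to 2 genes in each direction per injury comparison, or 1 where none passed. Genes so picked in the other comparisons are left out for length. The same animal gave both organs in 4 cases: once group means were removed, organs of a mouse correlated at -0.122 to 0.185, and different mice sharing a number at -0.565 to 0.169. Samples sharing neither correlated at -0.372 to 0.548, so these values do not set organs of 1 mouse apart. By the animal numbers in the labels, replicate numbers do not always pair the organs of a mouse. Alternatives were other background corrections, scalings, filters, probes, fits and blocks, the authors' matrix values (intensities with the background subtracted, here floored at 16), and each replicate left out. A setting in which the RefSeq probe stands for its gene was chosen after seeing the data. Promoter windows are the 250 bases before RefSeq starts.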

Additional observations from a re-analysis of the deposited data

Results flagged for a closer look

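The change in the bleomycin lung minus the change in the UUO kidney passed the test of the difference for 6 subunits, each lower in the lung. The difference in log2 fold change was -1.77 for Itga1, -2.01 for Itga3, -2.49 for Itga8, -1.84 for Itgav, -1.12 for Itgb1 and -1.27 for Itgb5, with adjusted p between 0.000204 and 0.00432. For Itga1 and Itga8 the lung fell and the kidney did not pass, and for Itga3, Itgav, Itgb1 and Itgb5 the kidney rose and the lung did not pass. The value of Itgav rests on the AK079805 probe: the NM_008402 probe gave 2.57, and it rose in the lung and not in the kidney. The second probe of Itgb1 gave 0.62, which did not pass (adjusted p = 0.157). The second probe of Itga8 gave -1.54 and passed, but neither Itga8 probe was above background in any kidney, so the size of its kidney part is not measured. Itga1, Itga3 and Itgb5 had 1 kept probe. No sample of a subunit was tested as an outlier, since each group held under 4 samples.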

How the results depend on the processing

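Of 1197 values of the 54 gene results under other settings, 1137 kept their direction and side of the threshold or did not pass in either, 14 lost the call, 38 gained one and 8 turned, and 18 of the 28 called results held in every setting. With the authors' matrix values the called subunits were 8 of 9 in the bleomycin lung, 7 between bleomycin and UUO-mouse lung and 2 in the UUO-mouse lung. In the UUO-mouse lung they were also 3 with median scaling, 4 with array weights, 0 with the second array of UUO-mouse lung 2 alone and 0 without healthy lung 3 and UUO-mouse lung 1 together. Leaving out 1 replicate gave 0 to 1 there (0 without healthy lung 1 or UUO-mouse lung 3). The shares of all genes that passed with the matrix values or with median scaling are not given here. The subunit counts under those settings therefore do not set the subunits apart from other genes. Itgav turned with the RefSeq probe in the bleomycin lung (2.19), the UUO kidney (-0.379), between bleomycin and UUO-mouse lung (2.2) and in the difference of effects (2.57), and with the matrix values in the bleomycin lung (0.589). Between bleomycin and UUO-mouse lung Itga1 turned with median scaling (0.0557) and with the matrix values (0.164), and Itgb1 with the matrix values (0.48). The matrix values also ended the calls of Itgb1 (-0.316) and Itgb5 (-0.447) in the difference of effects. The cause was not tested, beside the shifts of all genes given with the results. Called genes that were higher made up 49.5% in the bleomycin lung, against 75.1% with median scaling and 87.1% with matrix values. In the same order they made up 53.5%, 3.3% and 15.8% in the UUO-mouse lung, 60.6%, 78% and 34.6% in the UUO kidney, 44.5%, 86.1% and 89% between bleomycin and UUO-mouse lung, 44.7%, 35.7% and 64.7% between the healthy organs, and 39.8%, 42.5% and 84.2% in the difference of effects. Of all genes, 1265 passed in the UUO-mouse lung, and 303 to 2924 over the settings, the lowest without UUO-mouse lung 3 and the highest with array weights; 483 passed without healthy lung 1, 523 without healthy lung 3, 838 without healthy lung 2, 670 without UUO-mouse lung 1 and 345 without healthy lung 3 and UUO-mouse lung 1. Counting every probe gave 9350, 2530, 9187, 10943, 13740 and 10034 calls in the 6 comparisons. With the replicate number as a block, 7 subunits passed in the difference of effects, Itgb6 among them (-0.745), and the block changed no other call of a subunit. Of samples with the same number, healthy lung 3 and healthy kidney 3 share a mouse, as do UUO-mouse lung 2 and UUO kidney 2, and the others share only a number. With the mouse as a random block (correlation 0.0788) Itgb6 passed there too (-0.682). Weak probes near background, such as those of Itgb8 in lungs and Itga8 in kidneys, limit what can be seen.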
